A study of Arabidopsis thaliana x Arabidopsis arenosa and Arabidopsis suecica with 6 samples.

Results

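In F1 allotetraploids with 3 Arabidopsis thaliana (T) genomes and 1 Arabidopsis arenosa (A) genome, 238 nuclear genes drew most of their expression from the single A genome in every library. They were chosen by that reading: the A share, A/(T + A) in percent of the gene's RPKM (reads scaled to transcript length and library), exceeded 50% in all 6 libraries of the crosses TTTA and TATT. They made up 1.86% of the 12801 nuclear genes with a value in all 6 libraries, out of 17885 genes listed in the whole series. The rule leaves out 7 genes by name, the genes of plastid and mitochondrion, and genes without a value in any of the 6. The opposite pattern, over 50% from the T homoeolog in all 6 libraries with 3 A genomes, was met by 76 nuclear genes. That count is over genes with a value in those 6 libraries and does not leave out the 7 genes, so it is not a like count to the 238.

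Messenger RNA was measured in mature rosette leaves of plants that had not bolted, grown at 16 h light, and selected by poly(A). AlloF8 is a resynthesized allotetraploid of A. thaliana and A. arenosa in generation F8, and A. suecica (sample As) is the natural allotetraploid; both carry T and A genomes in equal number and have 2 libraries each. The 4 F1 crosses have 3 libraries each: TTTA (A. thaliana named first, AlloF8 second) and TATT (AlloF8 first, A. thaliana second) form the class T3A1, with 3 T genomes and 1 A genome, and AATA (A. arenosa first, AlloF8 second) and TAAA (AlloF8 first, A. arenosa second) form the class T1A3, with 1 T genome and 3 A genomes. Neither the direction of the cross by sex nor separate plants for the libraries of a sample are stated in the labels, so p-values measure the spread between these libraries. All 4 crosses carry chromosomes of AlloF8, so AlloF8 and the F1 libraries are related by descent, and in T3A1 the A genome came from AlloF8.

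An allotetraploid holds the chromosome sets of both parent species, and most genes are then present as a pair of homoeologs, one from each parent. Where both are transcribed equally per copy, the share of a homoeolog follows the number of its genome copies. Homoeologs can depart from this through differences in their own regulatory sequence, which act on the copy they lie beside, or through silencing of one parent's copy. A textbook case of the latter is nucleolar dominance, in which the ribosomal RNA genes of one parent are silenced; in A. suecica those of A. thaliana are the silenced set.

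The mean A share of the 238 genes in T3A1 had a median of 69.6% and ran from 52.3% to 98.4%. It exceeded 60% in 175 genes, 75% in 87 and 90% in 19, and the lowest of the 6 libraries was under 55% in 72. By library, the median share of the members lay between 67.5% and 70.5% in T3A1, where the median of all 12801 genes lay between 24.9% and 25.4%. These values chose the genes and are given as a description. In the libraries the choice did not use, medians are over the genes with a value in the library. The members' median was 86.1% and 83.0% in AlloF8, 75.4% and 75.2% in A. suecica, and 90.7% to 93.2% in the 6 libraries of T1A3. For those of the 12801 genes with a value it was 50.8% and 50.6%, 50.6% and 49.9%, and 75.9% to 76.7% in the same order.

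**Figure D1:**
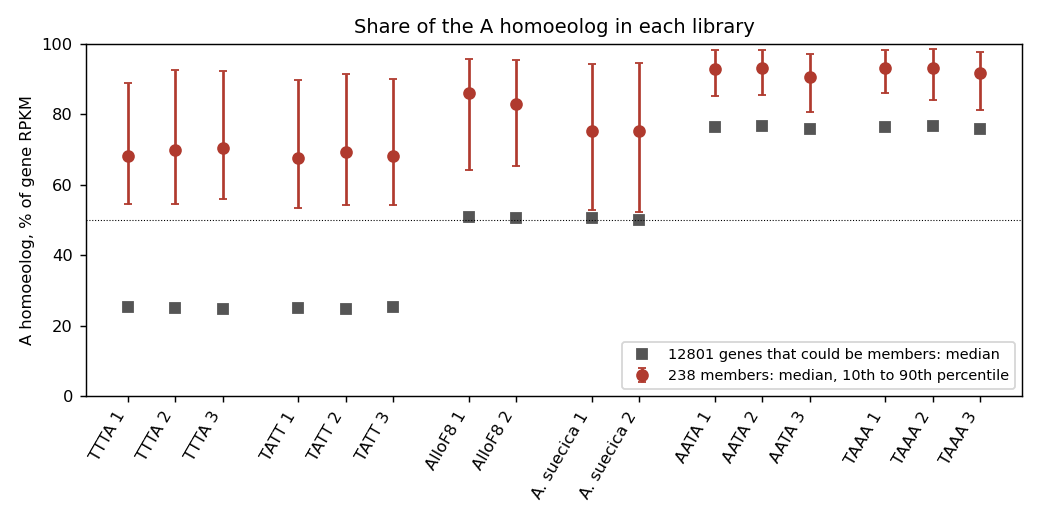
Share of the A homoeolog in percent of a gene's RPKM in each of the 16 libraries. Red points are the median of the members with a value, with bars from the 10th to the 90th percentile of genes, and grey squares are the median of the genes that could have been members; the red points lie above the grey squares in every library, by choice in TTTA and TATT.

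The label of these genes as A-dominated in every sample held for most, not all. Of the 195 members with a value in all 10 libraries outside the rule, 178 had an A share over 50% in all 10. In T1A3, 223 of the 224 members with all 6 values were over 50% in each, and 207 were over 75% in each. In AlloF8, 226 of 230 members with both values were over 50% in both libraries (98.3%, against 42.4% of the 12543 genes of the wider set with both values). In A. suecica it was 185 of 202 (91.6%, against 44.8% of 12014), and 31 members had no value in either A. suecica library. Under 50% in both AlloF8 libraries were 3 members, the F-box genes AT1G27580 and AT1G48400 and PPC4, a phosphoenolpyruvate carboxylase gene. Under 50% in both A. suecica libraries were 7: AT1G62660, IMS2, AT2G39850, FLS1, RPL10B, and AT4G29390 and AT3G52105, of which the ribosomal protein gene AT4G29390 was named after its values were seen. AT4G34881, of unknown product, split the A. suecica libraries, with 58.5% and 38.2%, beside 89.2% to 95.8% in T3A1.

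The ribosomal RNA genes in the set were AT3G41768 and AT2G01010 (the latter named after its values were seen), and they were the only genes annotated as rRNA among the 12801. For AT3G41768 the A share was 67.5%, 77.7% and 92.2% in TTTA, 60.9%, 95.1% and 94.3% in TATT, 93.9% and 95.5% in AlloF8, 95.5% and 96.4% in A. suecica, and 97.1% to 100% in T1A3. Replicate 1 was the lowest library of both T3A1 crosses. For AT2G01010 the share was 63.2%, 74.8% and 69.7% in TTTA, 57.6%, 82.5% and 65.7% in TATT, 95.8% and 96.8% in AlloF8, 97.0% and 94.3% in A. suecica, and 97.3% to 98.7% in T1A3. The total of AT3G41768 spread widely, from 352 RPKM in AATA replicate 1 and 582 in TTTA replicate 1 to 45927 in the second A. suecica library. Mature rRNA lacks a poly(A) tail and rRNA genes are repeats, so these totals in poly(A)-selected libraries are no measure of rRNA level. The AlloF8 ratio passed the test for AT2G01010 (log2 A/T 4.66, SE 0.621, adjusted p = 0.00032) and not for AT3G41768 (4.17, SE 2.97, adjusted p = 0.287).

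In the class of defence peptide and pathogenesis-related genes, 4 of 30 in the wider set were members (13.3%): PDF1.2b, PDF1.3, ChiC and AT2G43580. Among protease inhibitor genes it was 4 of 21 (19.0%), beside 1.86% of all genes, and no test was made. Both classes were formed from product names. The 7 genes that the rule leaves out by name include defensin genes and are in neither count. Defensins are small cysteine-rich antimicrobial peptides, and many Kunitz proteins inhibit proteases. PDF1.2b, a defensin gene, had an A share of 59.6%, 92.8% and 88.1% in TTTA, 84.3%, 85.9% and 77.7% in TATT, 93.4% and 87.9% in AlloF8, 98.4% and 99.0% in A. suecica, 91.0%, 89.2% and 97.5% in AATA, and 84.5%, 98.6% and 98.0% in TAAA. Its neighbour PDF1.3 had 73.9%, 93.2% and 93.4% in TTTA, 88.6% to 90.8% in TATT, 87.3% and 97.0% in AlloF8, 94.8% and 95.8% in A. suecica, and 82.5% to 97.6% in T1A3. In both defensin genes the classes overlapped, and TTTA replicate 1 was the lowest of the T3A1 libraries. Defensin genes are a family of close copies, and how reads were divided among them is not given in the sources used here.

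Among protease inhibitors, the Kunitz gene AT1G73325 had an A share of 87.9% to 91.5% in TTTA, 90.7% to 95.2% in TATT, 96.3% and 97.0% in AlloF8, 94.5% and 97.9% in A. suecica, and 98.2% to 99.8% in T1A3. The Kunitz gene AT1G72290, the member with the second highest total, was close to an even split in some T3A1 libraries, with 68.9%, 53.3% and 54.8% in TTTA and 72.3%, 50.4% and 54.2% in TATT. It had 75.7% and 75.8% in AlloF8 and 76.3% and 77.8% in A. suecica, and 67.4% to 96.7% in T1A3, so its classes overlapped. JAL23, a jacalin-related lectin gene, had 80.4% to 92.2% in T3A1, 84.4% and 95.6% in AlloF8, 94.0% and 95.3% in A. suecica, and 95.7% to 98.3% in T1A3. VSP2, a vegetative storage protein gene induced by jasmonate, had 64.2% to 78.0% in T3A1, 72.3% and 77.2% in AlloF8, 80.6% and 84.2% in A. suecica, and 85.5% to 95.8% in T1A3, where TAAA replicate 2 had no value.

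**Figure D2:**
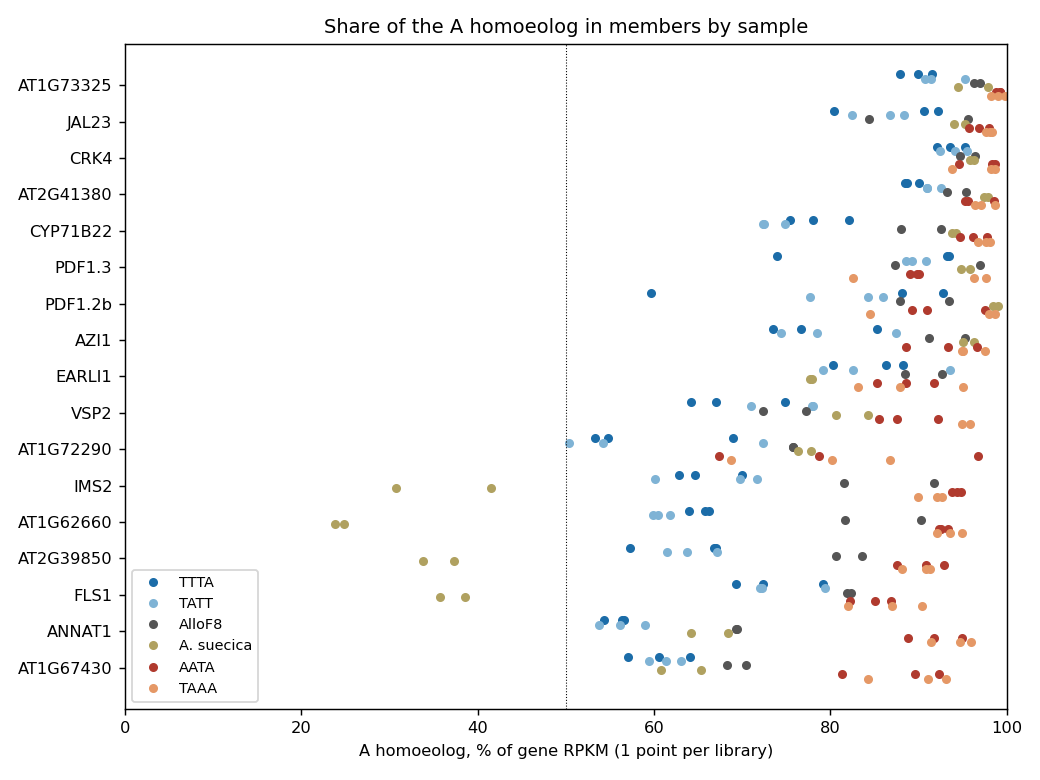
Share of the A homoeolog in percent of a gene's RPKM (horizontal axis) for 17 members, 1 point per library, coloured by sample. Shares in TTTA and TATT (blue) lie above 50% by choice; IMS2, AT1G62660, AT2G39850 and FLS1 fall under 50% in both A. suecica libraries.

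In several genes the A homoeolog gave nearly all of the expression in every sample with a value. CRK4, a cysteine-rich receptor-like kinase gene, had 92.1% to 95.5% in T3A1, 96.4% and 94.7% in AlloF8, 96.3% and 95.8% in A. suecica, and 93.8% to 98.7% in T1A3. AT2G41380, a methyltransferase gene, had 88.5% to 92.5% in T3A1, 95.4% and 93.2% in AlloF8, 97.4% and 97.9% in A. suecica, and 95.3% to 98.7% in T1A3. The T1A3 libraries of CRK4 overlapped those of T3A1, and those of AT2G41380 did not. AT5G28560, of unknown product, had 97.7% to 99.1% in T3A1, 99.5% and 98.5% in AlloF8 and 99.3% to 99.8% in T1A3, and had no value in A. suecica. AT1G33840, a LURP-one-like gene, had 95.5% to 99.6% in T3A1 and 98.7% to 99.8% in the 4 T1A3 libraries with a value, and no value in AlloF8 and A. suecica. The ribosomal protein gene AT1G36240, named after its values were seen, had 96.7% to 99.5% in T3A1, 90.9% and 87.6% in AlloF8, 97.3% and 94.2% in A. suecica, and 89.8% to 100% in T1A3. In the libraries outside the rule, AT4G06477, of unknown product, had 95.7% to 99.9%, the histone methyltransferase gene ASHH4 95.4% to 99.5%, and AT2G16200 95.3% to 99.8%. The RNA gene AT2G15555 had 98.7% to 99.7% in the 4 T1A3 libraries with a value. In T3A1 these 4 genes spread more, from 63.4% in 1 library of ASHH4 to 99.7% in 1 of AT4G06477.

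Ribosomal protein genes made up 12 members, 3.6% of the 333 in the wider set. Their mean A shares in T3A1 ran from 52.9% to 98.3%. The most expressed, AT1G67430, had 57.0% to 64.1% in T3A1, 70.4% and 68.3% in AlloF8, 65.3% and 60.8% in A. suecica, and 81.3% to 93.1% in T1A3. T3A1 and T1A3 did not overlap, and 1 A. suecica library lay within the T3A1 range. AT5G02960 had 57.5% to 63.5%, 65.9% and 64.8%, 68.7% and 68.0%, and 83.9% to 96.1% in the same order. RPL10B was at the low end, with 50.9% to 55.9% in T3A1, 65.5% and 57.8% in AlloF8, 48.8% and 41.5% in A. suecica, and 66.5% to 81.7% in T1A3. Each of these proteins is encoded by several near-identical genes in A. thaliana, and the counting could have split their reads. No member fell in the class of 171 heat shock and chaperone genes. The class of transcription factors gave 4 of 524 (0.763%) and that of translation and RNA processing 2 of 557 (0.359%). Classes were formed from product names by first match. The transcription factor genes AGL24, AGL19 and EDF3, also members, were placed with other named products. These shares are thus not those of all genes of a kind.

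Enzymes of secondary metabolism were among the members. In the cytochrome P450 class, formed from product names, 5 of 69 genes were members (7.25%), with mean A shares from 64.7% to 89.0% in T3A1. CYP71B22, the most expressed, had 72.3% to 82.1% in T3A1, 92.5% and 88.0% in AlloF8, 94.2% and 93.8% in A. suecica, and 94.7% to 98.1% in T1A3. IMS2 encodes a methylthioalkylmalate synthase, which lengthens methionine for aliphatic glucosinolates, and IPMI2 a subunit of the isomerase of the same cycle; CYP79F2 acts on the lengthened chains and TGG2 is a myrosinase that breaks glucosinolates down. IPMI2, CYP79F2 and TGG2 were named after their values were seen, and glucosinolate genes were not tested as a group. Glucosinolate genes of the wider set that were not members were not counted, so the share that were members is unknown. IMS2 had 60.1% to 71.7% in T3A1, 81.5% and 91.7% in AlloF8, 41.5% and 30.7% in A. suecica, and 89.9% to 94.8% in T1A3. IPMI2 had 53.2% to 65.1% in T3A1, 85.6% and 78.4% in AlloF8, 79.7% and 83.2% in A. suecica, and 92.8% to 94.3% in T1A3. CYP79F2 had 54.5% to 68.9% in T3A1, 87.0% and 82.6% in AlloF8, 54.3% and 54.7% in A. suecica, and 91.3% to 97.4% in T1A3. TGG2 had 70.5% to 81.6%, 62.1% and 78.7%, 61.9% and 66.1%, and 85.1% to 90.3% in that order. The annexin gene ANNAT1, a calcium-dependent membrane-binding protein, had 53.7% to 59.0% in T3A1, 69.3% and 69.4% in AlloF8, 64.2% and 68.4% in A. suecica and 88.8% to 95.9% in T1A3.

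The first question the data can answer outside the rule is whether the A homoeolog exceeded the T homoeolog where both genomes are present in equal number. In AlloF8, limma called A above T in 200 of 230 members (87.0%), against 20.3% of the 13866 genes tested; T above A was called in 0 members and in 18.6% of all genes. The median log2 A/T ratio was 2.18 in the members (10th to 90th percentile 0.91 to 3.74) and 0.04 in all genes. At an unadjusted p under 0.05 it was 209 members in either direction. By product class, all 5 cytochrome P450 members passed, as did 4 of 4 defence peptide and pathogenesis-related genes. The same held for 14 of 15 peroxidase and oxidoreductase genes, 9 of 11 genes of the lipid class and 9 of 10 kinase genes. Only 6 of 12 ribosomal protein genes passed, and 0 of the 3 ubiquitin and proteasome genes, UBC10, UBQ6 and ATGP4. The spread of a gene was shared by all 10 libraries outside the rule, including those of T1A3. A fit with 1 AlloF8 library therefore takes its spread from other samples, and its calls are no replication within AlloF8. The count fell without AlloF8 replicate 1 or 2 alone. It fell to a small part without replicate 1 of every sample, which also leaves fewer T1A3 libraries.

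In A. suecica, which was not a parent of the crosses, A was called above T in 131 of 202 members (64.9%), against 20.8% of the 13717 genes tested. The median ratio was 1.49 (0.17 to 3.62) in the members and 0.02 in all genes. T was called above A in 4 members, AT1G62660, AT2G39850, FLS1 and IMS2 (adjusted p = 0.0473 for IMS2), against 20.0% of all genes. These 4 calls fell to 1 without the first A. suecica library and to 0 without the second, and to 0 without replicate 1 or replicate 2 of every sample. The count with A above T rests on both A. suecica libraries as well: it was 80 without the first and 83 without the second, and 20 and 75 without replicate 1 or replicate 2 of every sample.

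In T1A3, where the copy number alone would give A to T of 3 to 1, the test asked whether the ratio exceeded that. It did in 218 of 233 members (93.6%), against 28.6% of the 14405 genes tested, and was below 3 to 1 in 1 member, AT1G27580, against 36.1% of genes. These shares of all genes depend on the pseudocount: 4125 genes were above and 5200 below at 0.5, 5235 and 3820 at 0.1, and 3234 and 6786 at 1, where 221 and 210 members were above at 0.1 and 1. The median log2 A/T was 3.31 in the members (10th to 90th percentile 2.33 to 4.60) and 1.52 in all genes, where 3 to 1 is 1.585. Examples are IPMI2 (3.74, SE 0.146, adjusted p = 3.33e-06), CYP71B22 (4.84, SE 0.258, adjusted p = 4.9e-06) and ANNAT1 (3.77, SE 0.185, adjusted p = 7.06e-06). AT1G27580 had an A share of 75.1%, 43.8% and 30.9% in AATA and 85.5%, 67.9% and 26.7% in TAAA, against 28.1% and 28.4% in AlloF8. Between the crosses TAAA and AATA, which differ in the order of the parents, the ratio differed in 0 members (limma, smallest adjusted p = 0.626; 9 of 233 at an unadjusted p under 0.05), beside 0.0% of all genes higher and 0.0208% lower in TAAA; a p that misses the threshold does not show that they were alike.

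The natural and the resynthesized allotetraploid differed in how strongly the A homoeolog led. The A to T ratio was lower in A. suecica than in AlloF8 in 40 of 200 members tested (20.0%), against 7.72% of the 12618 genes tested, and higher in 2 (1.0%), against 8.0%. The median difference was -0.40 on the log2 scale in the members (10th to 90th percentile -1.88 to 0.68) and -0.01 in all genes, and 134 of 200 members lay below 0. The members were chosen in F1 plants that descend from AlloF8 and not from A. suecica, and the part of this in the difference was not tested.

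The largest differences included genes that changed the leading homoeolog. AT1G62660, of the glycoside hydrolase family that contains the invertases, had an A share of 90.3% and 81.7% in AlloF8, 24.8% and 23.8% in A. suecica, 59.9% to 66.2% in T3A1 and 92.1% to 94.9% in T1A3. The difference of the log2 ratio was -3.79 (SE 0.333, adjusted p = 3.67e-05), and its total was also lowest in A. suecica, 3.06 and 4.11 RPKM against 42.4 and 28.6 in AlloF8. For IMS2 the difference was -3.60 (SE 0.417, adjusted p = 0.000242) and the total was 87.5 and 48.5 RPKM in A. suecica and 282 and 298 in AlloF8. AT2G39850, a subtilisin-like protease gene, had 80.6% and 83.6% in AlloF8 and 33.8% and 37.3% in A. suecica (difference -2.97, SE 0.289, adjusted p = 7.1e-05). FLS1, which encodes flavonol synthase, had 81.9% and 82.3% in AlloF8 and 35.7% and 38.6% in A. suecica (-2.67, SE 0.304, adjusted p = 0.000216). In all 4 genes both A. suecica libraries lay below every other library of the series. Without any single AlloF8 or A. suecica library the differences of the 4 ran from -4.3 (AT1G62660) to -2.56 (FLS1). Such fits leave 1 library in a sample and take the spread from the others, so they are no replication. Without replicate 1 of every sample the differences ran from -4.58 (IMS2) to -2.66 (FLS1), and all 4 calls were lost.

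In the glutathione transferase gene GSTU23 and in AT3G57020, of the phosphotriesterase family, the A homoeolog stayed ahead in both libraries of A. suecica but by less. GSTU23 had 97.4% and 95.5% in AlloF8 and 74.6% and 60.7% in A. suecica, and AT3G57020 had 92.7% and 93.1% against 61.1% and 58.9%. MOT2, of the sulfate transporter family, had 92.1% and 90% against 57.4% and 62.6% (-2.65, SE 0.344, adjusted p = 0.00051), and CYP79F2 had the values given above (-1.98, SE 0.451, adjusted p = 0.0129). The 2 genes with a higher ratio in A. suecica were AT3G62650, of unknown product, with 82.1% and 76.4% in AlloF8 and 95.2% and 96.3% in A. suecica (2.36, SE 0.494, adjusted p = 0.00853), and the germin gene GER3, with 79.0% and 78.1% against 92.1% and 96.4% (1.89, SE 0.576, adjusted p = 0.0467). The count of members that differed rests on single libraries: it was 20 without AlloF8 replicate 1, 28 without AlloF8 replicate 2, 15 without either A. suecica library, and 0 and 9 without replicate 1 or 2 of every sample. GER3 lost its call without any 1 of the 4 libraries (adjusted p from 0.097 to 0.274). Without the second A. suecica library GSTU23 (adjusted p = 0.0945), AT3G57020 (0.0536) and AT3G62650 (0.0666) lost theirs, and AT3G62650 also without the second AlloF8 library (0.0621). CYP79F2 lost its call without the first AlloF8 library and without either A. suecica library.

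**Figure D3:**
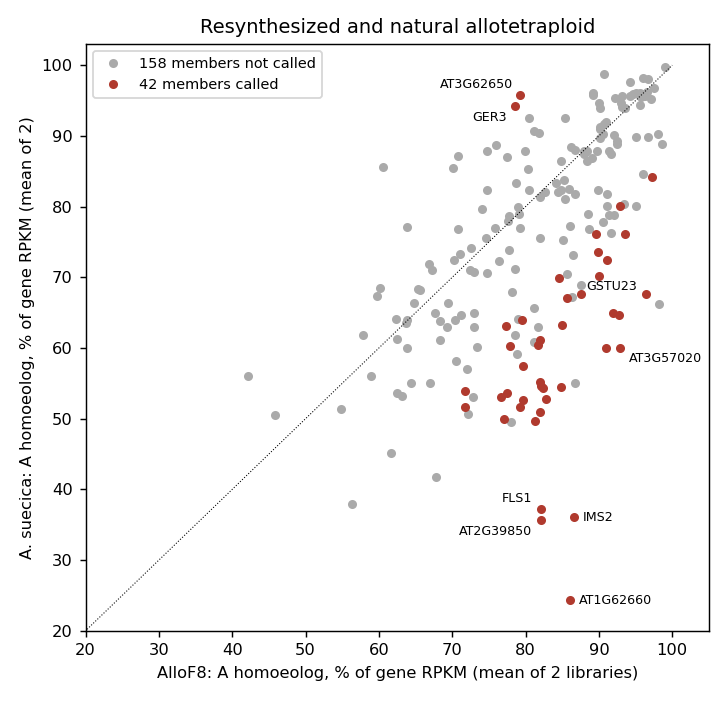
Mean A share in percent over the 2 libraries of AlloF8 (horizontal) and of A. suecica (vertical) for the 200 members tested, with the line of equal shares. The 42 members whose A to T ratio differed by limma are red and mostly lie below the line; AT1G62660, AT2G39850, FLS1 and IMS2 are under 50% in A. suecica.

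Total expression, T plus A, was also compared between the classes. The rule required a total in all 6 T3A1 libraries and divided by it. It also chose genes in which 1 A genome outweighed 3 T genomes. At an unchanged output per copy, such genes have a lower total with 1 A genome than with 3. The direction of this comparison is thus in part set by the choice of the genes, and the comparison is given only as a description of them. The calls, p-values and class counts of totals below are read in the same way. They are no evidence of a trait of the members as a set. The total was lower in T3A1 than in T1A3 in 132 of 233 members tested (56.7%), against 21.4% of the 13513 genes tested, and higher in 13 (5.58%), against 16.9%. As log2, the median difference was -0.63 in the members (10th to 90th percentile -1.69 to 0.18) and -0.05 in all genes, and 188 of 233 members lay below 0. With each library rescaled to one median the count of changed members was 136 in place of 145. It was 79 without replicate 1, 87 without replicate 3 and 102 without the replicate block, and with cross means as the units, 2 against 2, it was 0 (126 at an unadjusted p under 0.05).

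The members with the largest falls spread widely between libraries. AT1G72290 had 164, 201 and 209 RPKM in TTTA and 128, 349 and 650 in TATT, and 3279, 1217 and 4230 in AATA and 2272, 255 and 4848 in TAAA (log2 -2.97, SE 0.544, adjusted p = 0.00335). Replicate 2 was the lowest in both T1A3 crosses, and the classes overlapped through TAAA replicate 2; without replicate 1 or 3 the adjusted p was 0.0654 and 0.0588. VSP2 had 4.11 to 19.6 RPKM in TTTA, 48.6, 9.13 and 48.6 in TATT, 1198, 39.7 and 550 in AATA and 91.5 and 88.6 in TAAA (-2.82, SE 0.386, adjusted p = 0.00126), and replicate 2 was again the lowest where it had a value. JAL23 had 80.0, 27.7 and 48.8 RPKM in TTTA, 51.4, 37.0 and 92.4 in TATT, 1264, 129 and 636 in AATA and 438, 64.3 and 636 in TAAA (-2.75, SE 0.366, adjusted p = 0.000795). AT1G73325 had 10.8 to 28.9 RPKM in T3A1 and 9.88 to 385 in T1A3 (-2.32, SE 0.397, adjusted p = 0.00249; 0.0637 without replicate 1 and 0.0531 without replicate 3).

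CRK4 and AT2G41380 were highest in replicate 2 of the crosses TATT, AATA and also of TAAA. CRK4 had 23.5, 23.3 and 20.4 RPKM in TTTA, 10.8, 57.1 and 15.8 in TATT, 56.9, 223 and 70.0 in AATA and 139, 186 and 146 in TAAA (-2.46, SE 0.286, adjusted p = 0.000443). AT2G41380 had 15.5 to 75.6 RPKM in T3A1 and 68.9 to 305 in T1A3 (-2.28, SE 0.243, adjusted p = 0.000314). Replicate 2 held the lowest sum of the mesophyll markers in every cross, 36275 RPKM in TTTA, 23086 in TATT, 35104 in AATA and 19045 in TAAA. Its sum of the senescent leaf markers was the highest of its cross in TATT (584), AATA (254) and TAAA (636) and the lowest in TTTA (252). The part of either in these falls was not tested. NAC061, a transcription factor gene, had 106, 170, 77.9 and 150 RPKM in replicate 2 of the 4 crosses, against 3.43 to 56.4 in the other F1 libraries. Without replicate 2, 163 members changed.

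Genes in which the classes did not overlap included CYP71B22, with 37.4 to 64.7 RPKM in T3A1 and 71.3 to 206 in T1A3 (-1.50, SE 0.189, adjusted p = 0.000614), and 3 named after their values were seen. FAH1, the ferulic acid hydroxylase of lignin and sinapate synthesis, had 53.0 to 75.2 RPKM in T3A1, 85.5, 130 and 77.6 in AATA and 302, 373 and 290 in TAAA (-1.44, SE 0.0939, adjusted p = 4.53e-05). TGG2 had 7.26 to 15.1 RPKM in T3A1 and 22.2 to 83.9 in T1A3 (-1.89, SE 0.187, adjusted p = 0.000205). NIT2, a nitrilase gene, had 30.7 to 61.8 RPKM in T3A1 and 80.6 to 98.3 in T1A3 (-1.15, SE 0.162, adjusted p = 0.00105). IPMI2 had a mean of 128 RPKM in T3A1 and 235 in T1A3, with overlap (-0.81, SE 0.223, adjusted p = 0.0191).

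Product classes are described beside the 56.7% of all members and 21.4% of all genes that fell, with no test between classes. Falls in every class are in part set by the choice of the genes. In the largest class, of other named products, 42 of 79 fell and 6 rose (median -0.46). All 8 members of the transport class fell (median -1.03), among them the oligopeptide transporter genes OPT6 (-1.75, SE 0.308) and OPT4 (-0.87, SE 0.286), the zinc transporter gene ZIP5 (-0.97, SE 0.293) and MOT2 (-0.39, SE 0.0917), which was called in 10 of 16 alternatives. The class was formed from product names and includes AtCDC48B and AtCDC48C, ATPases that pull ubiquitylated proteins out of complexes and carry no solute. It leaves out other transporter genes among the members, such as the major facilitator gene AT5G18840, whose total rose (1.75). The fall of the whole class is thus not one of all transporter genes. In the lipid class 10 of 11 fell and 1, EARLI1, rose (median -1.19). The class takes in the methyl esterase genes MES6, MES8 and MES18 and a pectin acetylesterase gene, AT5G45280, beside the lipid transfer gene LTP2 (-0.89, SE 0.107, adjusted p = 0.000507). AZI1, a lipid transfer-like gene whose total rose (1.57), was placed with other named products. MES8 had 7.23 to 20.1 RPKM in T3A1 and 40.8 to 85.7 in T1A3 (-2.06, SE 0.201, adjusted p = 0.000186). Of the 12 ribosomal protein genes 4 fell, 2 rose and 6 did not pass (median 0.00), of the 15 peroxidase and oxidoreductase genes 9 fell, and of the 10 kinase genes 6 fell. ZIP5, OPT4, OPT6, AtCDC48B, AtCDC48C, MES6, MES8, MES18, LTP2 and AT5G45280 were named after their values were seen.

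The rises with the largest size were those of AT5G18840, AT1G27580, AZI1, AT3G28500, FKBP13 and AT4G14548. For the F-box gene AT1G27580 the rise was 1.63 (SE 0.131, adjusted p = 9.1e-05), with 17.1 to 54.1 RPKM against 4.03 to 20. AZI1, a lipid transfer-like protein needed for systemic immunity, had 168, 136 and 161 RPKM in TTTA, 169, 131 and 186 in TATT, 32.6, 58.0 and 27.2 in AATA and 63.4, 93.5 and 68.6 in TAAA (1.57, SE 0.193, adjusted p = 0.000551). AT5G18840, a major facilitator gene, had 17 to 34 RPKM in T3A1 and 2.55 to 15.9 in T1A3 (1.75, SE 0.221, adjusted p = 0.000609). The classes overlapped in AT1G27580 and not in AZI1 or AT5G18840. FKBP13, an immunophilin of the thylakoid lumen, had 39.4 to 86.7 RPKM in T3A1 and 19.5 to 54.7 in T1A3 (1.00, SE 0.139, adjusted p = 0.000965). The rises of the ribosomal protein gene AT3G28500 (1.20, SE 0.415, adjusted p = 0.0457) and the RNA gene AT4G14548 (0.87, SE 0.192, adjusted p = 0.0115) did not hold without replicate 1 (adjusted p = 0.281 and 0.0503), and that of AT3G28500 also not without replicate 3 (0.274) or without any 1 cross (0.0567 to 0.145). The rise of AT4G14548 was 0.39 without the replicate block (adjusted p = 0.514), 0.58 without TTTA (0.167) and 0.62 without TAAA (0.0966).

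**Figure D4:**
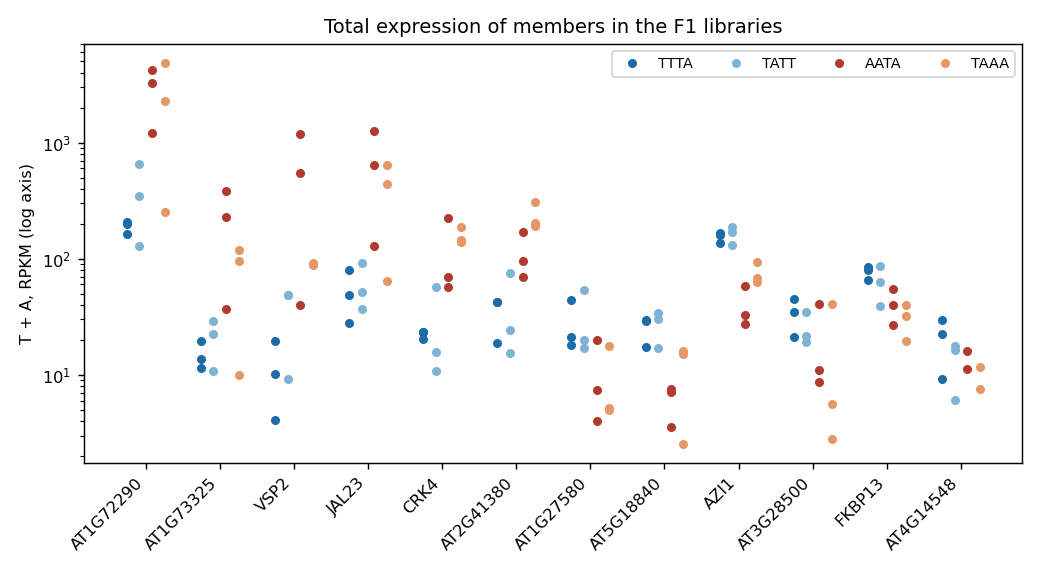
Total RPKM (T plus A, log axis) in the 12 F1 libraries for the members with the largest falls (left) and rises (right) in T3A1 against T1A3, 1 point per library. AZI1 and AT5G18840 separate the classes without overlap, and AT1G72290, VSP2 and JAL23 spread over more than an order of magnitude within T1A3.

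Of the 238 members, 228 were annotated as protein coding, 5 as ncRNA, 3 as pseudogene and 2 as rRNA, and 114 had a gene symbol. Their total expression had a median of 24.9 RPKM over the 4 crosses (14.2 in the wider set) and ran from 3.69 to 5266. The coding length had a median of 927 bases against 1162 in the wider set, and 37 of the 228 protein-coding members (16.2%) had a single exon against 11.2%. The share of eligible genes that were members was 2.79% on chromosome 2 and 1.44% to 1.93% on the other 4. An overlap with another annotated gene was found for 62 members (26.1%), on the opposite strand for 55 of them. The share in the wider set was not computed, so this is not shown to be particular to the members. Whether the counting used strand is not given in the sources used here, so reads of such pairs may not be told apart.

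Neighbouring genes both met the rule in 8 pairs, with no longer run. PDF1.2b and PDF1.3, and AZI1 and EARLI1, are tandem genes of one family each. EARLI1 had an A share of 79.1% to 93.6% in T3A1, 88.4% and 92.6% in AlloF8, 77.9% and 77.7% in A. suecica, and 83.1% to 95.0% in T1A3, and AZI1 had 73.5% to 87.4%, 95.2% and 91.2%, 96.3% and 95.0%, and 88.6% to 97.5%. The lipid transfer genes AT2G44290 and AT2G44300 had 51.9% to 59.7% and 61.0% to 80.9% in T3A1. The A shares of UBQ6 and its neighbour AT2G47115 differed by at most 1.45 percentage points in any library, and the total of AT2G47115 was 0.35 to 0.406 times that of UBQ6; whether they share reads was not tested. AT5G05420 and AT5G05430 had 90.8% to 94.4% and 71.8% to 80.9% in T3A1. The other 3 pairs were ABCE1 with AT3G13650, AT4G29700 with AT4G29710, and AT4G37550 with AT4G37560.

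The threshold lay in a continuous range of values. Just inside it were UCH1, with a lowest library of 50.1%, LCR68 with 50.12% and AT5G48630 with 50.17%. Just outside were CYP76C2, with a lowest library of 49.98% and a mean of 75.6%, AT2G37600 with 49.9% and LOG1 with 49.71%.

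Leaf markers were present in all 16 libraries, and those of other organs were low. All 10 mesophyll markers were listed, with sums of 15086 to 65942 RPKM, and 6 of 7 senescence markers, with 64.4 to 636. Of 8 flower markers 1 was listed (0 to 11.2 RPKM), of 7 root markers 1 (4.1 to 17.1) and of 6 guard cell markers 4 (3.21 to 23.0). No marker was a member. The AlloF8 libraries differed in mesophyll markers, 15086 and 58534 RPKM, and in members such as VSP2 (5.83 and 309 RPKM) and GER3 (40.4 and 645 RPKM). In bulk leaf, fewer cells of a type and less RNA per cell cannot be told apart. Depth cannot be given, since the files hold RPKM and no counts.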

How the data were processed

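The authors deposited, for each sample, RPKM per transcript, separately for T and A, with a column per replicate and 16 libraries in all. Per the submitters' processing notes the build was TAIR 9; the sources used here give no aligner, homoeolog assignment or filter, and depth is unknown. A wrong assignment of reads would move the shares directly. Pairs listed at 0 were treated as missing; no pair had only 1 homoeolog at 0, and the lowest nonzero total was 2.0 RPKM, so the minimum mean of 1 RPKM removed nothing. A gene was its transcript with the highest mean total (25 members had several). Names, gene order and lengths came from TAIR 10.1, without coordinates.

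limma 3.58.1 in R 4.3.3 (eBayes with trend, two-sided, Benjamini-Hochberg over all genes, 0.05) was fitted to log2((A + 0.5)/(T + 0.5)) over the 10 libraries outside the rule, and to log2(T + A + 0.5) over the 12 F1 libraries with replicate number as a block; fold changes on these scales understate changes of low genes. Same-numbered F1 libraries deviated together for totals in every one of 18 pairs (correlations 0.16 to 0.693). For ratios they did so in part (-0.0459 to 0.732, median 0.213). Over the 10 libraries outside the rule, 13 pairs gave -0.274 to 0.732 for ratios and -0.685 to 0.613 for totals. Ratios were fitted without the block, with 1 spread per gene shared by AlloF8, A. suecica, AATA and TAAA. Tests in AlloF8 and A. suecica thus rest also on the spread within AATA and TAAA. Scripts were tested on simulated data; Python 3.11.15 and pandas 2.3.3 made the tables.

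The members, classes and lists were chosen with earlier results of these data known. Named genes were: the 8 highest totals, the 8 highest and 6 lowest A shares outside the rule, up to 6 of the largest changes per direction, 3 on each side of the threshold, the top gene of each class with 3 or more members, and 5 neighbour pairs. A product pattern for thionins was corrected after it was seen to match methionine. Alternatives changed pseudocount, minimum, transcript choice, block, trend, scaling and libraries. No sequences were used.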

Additional observations from a re-analysis of the deposited data

Results flagged for a closer look

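A difference between the natural and the resynthesized allotetraploid, tested as the difference of the log2 A to T ratio in A. suecica minus AlloF8, marked 8 named genes: AT1G62660 (-3.79), IMS2 (-3.60), GSTU23 (-3.10), AT2G39850 (-2.97), AT3G57020 (-2.93), FLS1 (-2.67), GER3 (1.89) and AT3G62650 (2.36). All of them were named for the size of this same difference, so the flag repeats that choice. MOT2, named as the top gene of its class, was also called, with the values given above. The dependence of these calls on single libraries, as for GER3, is given above.

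One library was flagged as apart from the other libraries of its class in A share for several named genes. Chance alone does so in about 1 of 20 groups. The number of groups screened is not given here, so the flags cannot be set against the number due to chance. They are not results by themselves. In T1A3 these were AT1G33840 in TAAA replicate 2 (98.7%), AT4G06477 in TAAA replicate 1 (95.7%), GSTU23 in TAAA replicate 2 (93.2%), the histone gene AT1G13370 in AATA replicate 1 (84.3%) and the lipid transfer gene AT2G44300 in AATA replicate 3 (83.2%). In T3A1 these were AT1G33840 in TATT replicate 3 (95.5%), AT1G13370 in TATT replicate 1 (67.5%) and PDF1.3 in TTTA replicate 1 (73.9%).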

How the results depend on the processing

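Direction was kept in every alternative run that fitted the gene, for the 8 named ratio differences and the 12 named changes of total. VSP2 was not fitted without replicate 1 or without replicate 3, nor AT4G14548 without replicate 2 or without replicate 3. Calls were lost mostly where libraries were left out or crosses were the units. The rule gave 433 genes by the mean share over 50% in place of all 6 libraries, 303 to 345 within one cross and 252 to 337 without one replicate number. Leaving out one replicate number or library gave 3 to 216 members with A above T in AlloF8, 20 to 149 in A. suecica, 0 to 53 with a difference between AlloF8 and A. suecica, and 79 to 163 with a changed total. With a replicate block the counts were 205 in AlloF8, 144 in A. suecica, 62 for their difference and 223 in T1A3, where same-numbered ratios were correlated in some pairs only; without the block, 102 totals changed. With cross means as units 0 totals passed (126 at an unadjusted p under 0.05). Leaving out single AlloF8 or A. suecica libraries, and replicate 2 with rescaling (155 totals), were chosen after seeing the data. The causes were not tested, beyond the smaller number of libraries. Unknown depth sets no limit that could be computed.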

Other observations

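In 10 of the 230 members with both AlloF8 values, all 6 T3A1 libraries had a higher A share than both AlloF8 libraries, although T3A1 holds relatively fewer A genomes; this held for 50 of 12543 genes of the wider set. The values are a description, since the rule used the T3A1 shares. AT4G29710, of the alkaline phosphatase-like family, had 84.2% to 94.4% in T3A1 and 66.8% and 67.7% in AlloF8. AT1G60740, of the thioredoxin family, had 91.6% to 99.0% against 85.8% and 87.6%, and AT1G36240 96.7% to 99.5% against 87.6% and 90.9%. AT1G76200, annotated as a subunit of the NADH dehydrogenase complex, had 77.2% to 90.7% against 66.8% and 68.6%, and AT5G05420, a peptidyl-prolyl isomerase gene, had 90.8% to 94.4% against 75.9% and 79.5%. The RNA genes AT2G05995 and AT4G14548 had 79.3% to 89.7% against 59.6% and 61.4%, and 73.2% to 90.4% against 52.2% and 57.0%. The other 3 were AT1G27580, AT1G48400 and PPC4, in which the T homoeolog led in AlloF8 and the A homoeolog in T3A1.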
